A study of Mus musculus with 4 samples.

Results

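The regions described here are the genomic intervals of mouse genes whose symbol is Zfp followed by a number, the zinc finger protein genes. Members were all such symbols with a single row on chromosomes 1 to 19 of the deposited expression files, leaving out Zfp42, Zfp57, Zfp352 and Zfp951. That gave 326 of the 21310 single-row genes on these chromosomes. They were measured in E14Tg2a cells, a mouse embryonic stem cell line, in TetTKO cells and in WT cells. TetTKO cells carry CRISPR-induced mutations in Tet1, Tet2 and Tet3 after a mixture of guide RNAs was transfected, and came from clones that were picked and screened. WT cells are the unedited line. Both were kept first in medium with MEK and GSK3 inhibitors and then for at least 17 days in 15% serum with 1000 units/ml of LIF. Each genotype had 1 whole-genome bisulfite (WGBS) library and 1 RNA-seq library, so no difference below has a replicate check, no test was possible, and each is a difference between 2 libraries.

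A zinc finger is a small fold held by a metal ion, and proteins of this family carry it in tandem arrays that bind DNA at sequences set by the fingers. Many also carry a KRAB domain, which recruits Trim28 (KAP1), the histone methyltransferase Setdb1 and DNA methyltransferases, and in embryonic stem cells such proteins silence retrotransposons and guard imprinted loci. The genes multiplied by tandem duplication, so many lie side by side in clusters, while others stand alone. Tet enzymes oxidise 5-methylcytosine, and bisulfite sequencing reads 5-methylcytosine and 5-hydroxymethylcytosine alike. A symbol of this form does not fix the kind of finger: Zfp36 (tristetraprolin), for example, binds AU-rich mRNA. Protein sequences were not analysed here.

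Members were classed by how many other members lay within 500 kb. The 149 clustered genes had 3 or more, the 68 genes between had 1 or 2, and the 109 isolated genes had none. Zinc finger genes with other kinds of symbol were not counted, so an isolated gene may still have relatives nearby. The methylation level of an interval is the mean over its listed CpGs of the share of reads that were methylated, with at least 5 listed CpGs required. Each end covered 1000 bp of flank and the outermost 500 bp of the gene. The expression files give no strand, so the ends were told apart by CpG number alone, as the CpG-richer and the CpG-poorer end. By the strand in the RefSeq promoter table, the CpG-richer end was the gene start for 245 of 266 members that could be looked up (92.1%). Of the 326 members, 325 intervals, 321 CpG-richer ends and 268 CpG-poorer ends could be measured.

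Promoter sequences of 6 members are shown because 5 of these genes are among those that differed most between the libraries, and Zfp809 is a known silencer of retroviruses. They are RefSeq windows of build GRCm38.p6, from 250 bases before to 50 bases after the gene start, 5′ to 3′ along the gene, with each CpG in capitals. The methylation values below come from mm9 intervals, so the coordinates of the builds must not be mixed. Whether a window lies inside the measured end of its gene was not checked. Zfp740 (chr15:102203750-102204049, plus strand) has 54 CpGs in this window, Zfp790 (chr7:29815822-29816121, plus strand) 16 and Zfp936 (chr7:43177340-43177639, plus strand) 6. Zfp629 (chr7:127615223-127615522, minus strand) has 8 CpGs, Zfp809 (chr9:22225453-22225752, plus strand) 11 and Zfp600 (chr4:146156577-146156876, plus strand) 5.
Zfp740: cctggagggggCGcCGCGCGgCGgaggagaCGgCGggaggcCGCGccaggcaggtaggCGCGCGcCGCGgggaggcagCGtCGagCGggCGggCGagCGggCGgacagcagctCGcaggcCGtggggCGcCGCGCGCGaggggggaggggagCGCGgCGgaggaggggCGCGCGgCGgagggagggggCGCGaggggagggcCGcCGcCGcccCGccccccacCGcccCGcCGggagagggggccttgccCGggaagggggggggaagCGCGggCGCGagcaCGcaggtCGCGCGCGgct
Zfp790: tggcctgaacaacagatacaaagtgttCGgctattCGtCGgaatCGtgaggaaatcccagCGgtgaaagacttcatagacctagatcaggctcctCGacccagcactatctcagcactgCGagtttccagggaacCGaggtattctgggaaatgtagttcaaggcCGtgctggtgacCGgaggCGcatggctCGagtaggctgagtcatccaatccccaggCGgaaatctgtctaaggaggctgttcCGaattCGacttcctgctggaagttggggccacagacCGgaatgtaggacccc
Zfp936: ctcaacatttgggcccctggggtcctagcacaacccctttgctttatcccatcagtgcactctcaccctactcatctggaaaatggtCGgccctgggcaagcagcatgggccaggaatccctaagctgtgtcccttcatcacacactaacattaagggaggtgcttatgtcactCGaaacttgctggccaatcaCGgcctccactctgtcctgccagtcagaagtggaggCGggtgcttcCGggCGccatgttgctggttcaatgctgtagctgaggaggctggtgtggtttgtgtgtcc
Zfp629: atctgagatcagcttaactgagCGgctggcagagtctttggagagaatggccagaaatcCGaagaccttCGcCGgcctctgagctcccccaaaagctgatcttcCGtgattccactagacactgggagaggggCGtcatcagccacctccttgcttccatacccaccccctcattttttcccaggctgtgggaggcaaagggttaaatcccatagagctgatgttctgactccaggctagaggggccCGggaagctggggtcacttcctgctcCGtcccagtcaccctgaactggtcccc
Zfp809: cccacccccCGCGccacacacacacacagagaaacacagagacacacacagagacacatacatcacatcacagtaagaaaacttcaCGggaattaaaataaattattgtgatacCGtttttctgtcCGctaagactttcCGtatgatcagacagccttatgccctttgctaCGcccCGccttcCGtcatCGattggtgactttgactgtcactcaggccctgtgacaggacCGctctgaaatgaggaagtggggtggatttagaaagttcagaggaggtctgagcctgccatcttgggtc
Zfp600: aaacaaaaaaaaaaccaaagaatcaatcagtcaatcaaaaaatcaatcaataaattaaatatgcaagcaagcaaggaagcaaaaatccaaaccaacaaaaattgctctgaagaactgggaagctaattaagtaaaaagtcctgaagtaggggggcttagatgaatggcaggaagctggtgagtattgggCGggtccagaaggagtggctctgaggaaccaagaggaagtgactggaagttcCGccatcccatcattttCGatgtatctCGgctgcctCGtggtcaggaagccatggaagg

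The median promoter window of the family held more CpGs than that of all genes, but the upper quartiles were the same. Of the 326 members, 267 matched a RefSeq promoter, 259 by symbol and 8 by an older symbol. Their windows held a median of 15 CpGs, against 7 in the 25748 promoters of all genes on the same chromosomes. The quartiles were 9 and 21 CpGs in members and 3 and 21 in all promoters. Clustered members had a median of 12, members between 14 and isolated members 18. Matches to 4 motifs were counted on either strand, in sets that were not matched for CpG number. CCGGAAGT, the core bound by ETS-family factors, was found in 10.9% of member promoters and 4.07% of all promoters. AAGATGGC, the core bound by Yy1, was found in 6.37% of member promoters and 2.86% of all. The palindromic core bound by Nrf1 was found in 9.36% of member promoters and 6.62% of all. GGGGCGGGG, a GC box, was found in 11.2% of member promoters and 11.8% of all, and in 6.77% of clustered against 22.4% of isolated members. Some GC-rich windows hold several of these motifs, as that of Zfp740 holds the GC box and the Nrf1 core, and a match is only a run of letters. The window of Zfp809 holds AAGATGGC, and those of Zfp790, Zfp936, Zfp629 and Zfp600 hold none of the motifs.

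The deposited methylation files list the same 14323377 CpGs, with 150132176 read calls in TetTKO and 132794183 in WT. Median coverage on autosomes was 10 reads in TetTKO and 9 in WT, and mean methylation was 65.0% in TetTKO and 69.4% in WT. Member intervals held 74178 of these CpGs, with 786492 read calls in TetTKO and 697339 in WT. Tet1 had 4.36 FPKM in TetTKO and 15.1 in WT, Tet2 had 4.13 and 14.9, and Tet3 had 0.27 and 0.32. FPKM, the RNA level per gene scaled by transcript length and library depth, cannot show an indel. All 8 stem cell markers were present, between 16.3 and 3344 FPKM in TetTKO and between 18.1 and 3211 in WT. Of these, 3 were higher and 5 lower in TetTKO. Nanog, among the lower, had 71.0 FPKM in TetTKO and 116.3 in WT, and Esrrb had 26.4 and 49.3. Of other lineages, 4 of 5 primitive endoderm, 2 of 3 neural and 1 of 5 fibroblast markers reached 1 FPKM in either library. The neural Tubb3 had 32.4 FPKM in TetTKO and 61.1 in WT, Pax6 had 1.32 and 2.63, and Sox1 had 0.26 and 0.18. The 5 primitive endoderm markers summed to 6.18 FPKM in TetTKO and 2.00 in WT, the 3 neural markers to 34.0 and 63.9, and the 5 fibroblast markers to 2.33 and 1.58. Their part in the results below was not tested. Chromosome 6 stood apart: its coverage relative to the median autosome was 0.982 in TetTKO and 1.343 in WT, and its genes had a median log2 ratio of -0.43, against 0.002 on the other autosomes.

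Zinc finger gene intervals were less methylated in TetTKO, by slightly more than genes in general. The median whole-interval level of the 325 measured members was 52.6% in TetTKO and 56.8% in WT, and the median difference was -3.75 percentage points. The lower quartile was -6.45 points, and the full range was -20.3 to 12.8 points. TetTKO was lower in 242 of 325 members, 74.5%, against 68.7% of all 20584 gene intervals measured. At least 10 points lower were 21 members, 6.46%, against 6.83% of all gene intervals, and at least 10 points higher were 4 members, 1.23%, against 2.8%. The other gene intervals had a median of 62.0% in TetTKO and 65.2% in WT, with a median difference of -2.92 points. Across members the 2 libraries ranked the intervals alike (Spearman 0.944, n = 325 intervals that share the same libraries).

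Clustered members had the largest median loss of the classes. They had a median of 50.9% in TetTKO and 56.3% in WT, a median difference of -4.89 points, and 120 of 148 were lower. Members between had 53.0% and 57.4%, a median difference of -3.92 points, and 52 of 68 were lower. Isolated members had 56.0% and 58.7%, a median difference of -2.28 points, and 70 of 109 were lower. At least 10 points lower were 13 clustered, 4 between and 4 isolated members, and all 4 members at least 10 points higher were isolated. At the boundary of the class, the 19 members with exactly 3 others had a median difference of -7.59 points and the 34 members with exactly 2 others -2.90 points. The clustered median lay 2.62 points below the isolated one, and it lay 1.58 points below when neighbours were counted within 250 kb. Clustered members held a median of 8.96 listed CpGs per kb and isolated members 10.2, so CpG density moves with the class.

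**Figure D1:**
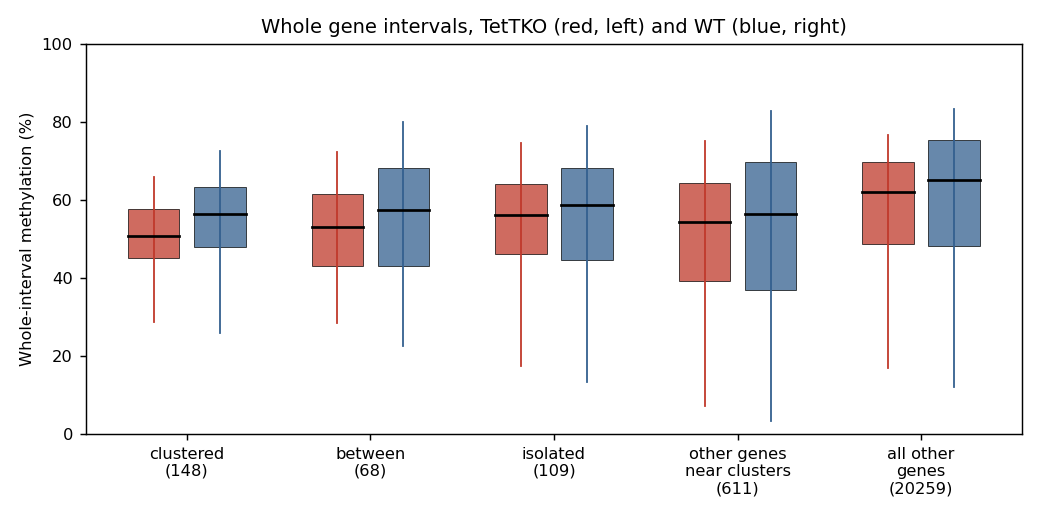
Whole-interval CpG methylation in percent for clustered, between and isolated Zfp genes, for other genes within 500 kb of clustered members and for all other genes (number of genes in brackets), TetTKO in red left of WT in blue. Boxes span the quartiles, black lines are medians and thin lines run from the 5th to the 95th percentile; the clustered median was 50.9% in TetTKO and 56.3% in WT.

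Genes that share the chromosome neighbourhoods of the clusters, but are not members, had a smaller median difference and a wider spread. The 611 measured non-member genes within 500 kb of clustered members had a median of 54.4% in TetTKO and 56.3% in WT, and a median difference of -1.06 points. At least 10 points lower were 8.78% of clustered members and 9.49% of these neighbours (58 genes), and at least 10 points higher were 0 clustered members and 4.58% of the neighbours (28 genes). Non-members of 5 to 50 kb had a median difference of -2.43 points. Other zinc finger families, the Zbtb, Zscan and Zkscan genes, had 49.6% in TetTKO and 49.4% in WT, with a median difference of -0.74 points over 48 genes. The olfactory receptor genes, another large family in tandem clusters, had 71.7% in TetTKO and 81.0% in WT, with a median difference of -8.53 points over 751 genes. A difference below that of the average gene was therefore not particular to zinc finger genes.

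The interiors of the genes were less methylated in TetTKO by more than the whole intervals. Without 2000 bp at each end, 304 members still had at least 5 CpGs, with a median of 68.7% in TetTKO and 75.4% in WT and a median difference of -6.55 points. TetTKO was lower in 256 of these 304 interiors, against 77.7% of all gene interiors. At least 10 points lower were 68 of 304, 22.4%, against 9.84% of all gene interiors. By class these were 39 of 138 clustered (28.3%), 17 of 64 between (26.6%) and 12 of 102 isolated members (11.8%). Median interior levels were 67.2% in TetTKO and 75.0% in WT for clustered members, with a median difference of -7.92 points. For isolated members they were 70.4% and 76.0%, with a median difference of -3.97 points, and for all non-members 70.0% and 75.3%, with -4.65 points.

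Read in 10 bins of equal length from the CpG-richer end, the difference ran along the gene beyond bin 1. In bin 1, clustered members had a median of 10.7% in TetTKO and 8.31% in WT, isolated members 13.3% and 11.2%, and non-members 29.7% and 26.4%. From bin 3 to bin 10, clustered members had medians of 65.6% to 69.5% in TetTKO and 75.3% to 79.1% in WT. Median differences over those bins were -8.84 to -6.76 points in clustered, -5.48 to -2.61 in isolated members and -5.06 to -4.16 in non-members. Members between had -9.1 to -3.6 points, a range that overlapped those of both clustered and isolated members. The ranges of clustered and isolated medians did not overlap, but single members did. In bin 3 the quartiles of the difference were -14.2 and -1.59 points in clustered members and -10.2 and 3.73 points in isolated ones. The 5 kb flanks also differed. At the CpG-poorer end the flank had a median difference of -6.25 points in clustered members, -5.04 in isolated members and -4.11 in non-members, and at the CpG-richer end -3.21, -0.62 and -1.52 points.

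**Figure D2:**
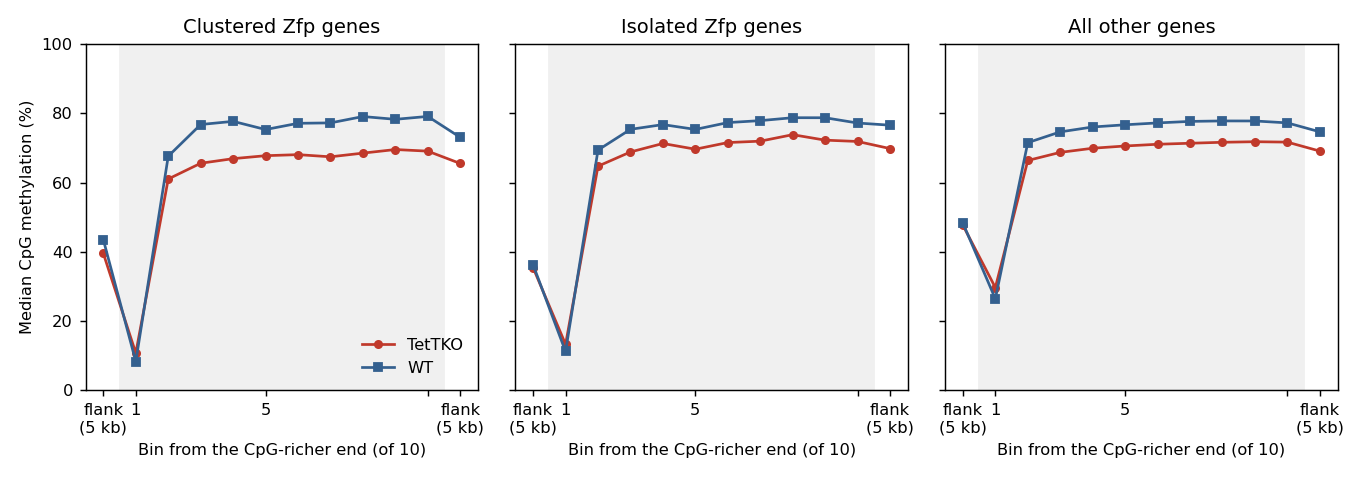
Median CpG methylation in percent along Zfp genes that are clustered or isolated and along all other genes, in 10 bins of the interval counted from the CpG-richer end (grey band) with 5 kb flanks, TetTKO as red circles and WT as blue squares. The lines cross near the CpG-richer end, where clustered members had 10.7% in TetTKO and 8.31% in WT, and TetTKO lies lower from bin 2 on.

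The clustered median lay below the isolated one in either band of CpG density. The bands were chosen after seeing the data and CpG density was not matched within them, so its part in the gap was not tested. Among intervals with under 10 listed CpGs per kb, the median difference was -6.18 points in clustered members, with 85 of 87 lower, -4.16 points in isolated members, with 44 of 52 lower, and -5.41 points in non-members. Their interiors had median differences of -9.21, -5.09 and -6.28 points in the same order. Among intervals with at least 10 CpGs per kb, the median differences were -0.96 points in clustered members, 0.75 points in isolated members and 0.57 points in non-members. Coverage was similar, at medians of 11.1 reads per CpG in TetTKO and 9.69 in WT for clustered members and 10.6 and 9.24 for isolated members.

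The clusters were not alike. Linking clustered members by gaps of at most 500 kb gave 19 runs on 7 chromosomes, of which 14 held at least 5 members and 132 members in all. In 12 of these 14 runs the median member was less methylated in TetTKO, and in 9 it lay below the isolated median. Of the 12 runs of at least 5 members that also hold other genes, the other genes had the lower median difference in 7 and the members in 5. Chromosome 7 held 66 of the clustered members. There the median difference was -2.47 points and 46 of 66 were lower, whereas off chromosome 7 it was -5.77 points and 74 of 82 were lower. Clustered intervals had a median of 11.1 CpGs per kb on chromosome 7 and 6.45 elsewhere.

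The largest run, from Zfp160 to Zfp40 on chromosome 17 (mm9, 21145905 to 23330195), was less methylated in TetTKO in each of its 18 members. Its median was 50.9% in TetTKO and 59.0% in WT, the median difference was -8.27 points, and members ranged from -13.6 to -5.23 points. Zfp54 had 39.5% in TetTKO and 53.1% in WT over 52 CpGs, but the difference was -2.75 points over CpGs with at least 10 reads in both libraries. Zfp944 had 50.8% and 63.2% over 105 CpGs, and Zfp40, at the far end, 52.2% and 60.3% over 94. The run is CpG-poor, with a median of 4.76 CpGs per kb. The 10 other genes inside it had a median difference of -9.34 points, so the loss there was not confined to members. Whether these other genes also encode zinc finger proteins was not examined. The CpG-richer ends of the run had medians of 4.60% in TetTKO and 2.25% in WT. In RNA the run had a median of 4.60 FPKM in TetTKO and 3.67 in WT, with a median log2 ratio of 0.18.

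The second run on chromosome 17, from Zfp871 to Zfp101 (32902442 to 33531582), was lower in 10 of 10 members, with a median difference of -6.83 points. The 11 other genes inside it had -10.4 points. On chromosome 13, the run from Zfp712 to Zfp273 (67139530 to 67927937) holds 17 members, and 14 of the 16 measured were lower, with a median of -6.28 points. It contains members with the most neighbours, and Zfp429, Zfp456 and Zfp459 each have 16 others within 500 kb. Zfp456 had 49.0% in TetTKO and 60.2% in WT over 51 CpGs, Zfp459 had 42.8% and 41.3% over 113, and Zfp429 had only 1 listed CpG in its interval. Both runs on chromosome 9 were lower in 5 of 5 members, with median differences of -5.58 and -7.26 points, and the run from Zfp787 to Zfp28 on chromosome 7 was lower in 6 of 6, with -6.52 points.

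A pair of CpG-dense runs on chromosome 7 went the other way. The run from Zfp628 to Zfp580 (4866819 to 5005325) had a median of 25.9% in TetTKO and 23.5% in WT, a median difference of 3.01 points, and 1 of 6 members was lower. Its intervals held a median of 24.8 CpGs per kb. The run from Zfp553 to Zfp646 (134376957 to 135029510) had 32.1% in TetTKO and 28.7% in WT, a median difference of 1.90 points, 4 of 10 members lower and 22.6 CpGs per kb. The other runs of at least 5 members on chromosome 7 had medians between -6.52 and -1.64 points, and the run from Zfp930 to Zfp866 on chromosome 8 had -2.85 points. The run on chromosome 6, from Zfp786 to Zfp862, had -1.47 points over 10 members, on the chromosome with extra WT coverage.

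**Figure D3:**
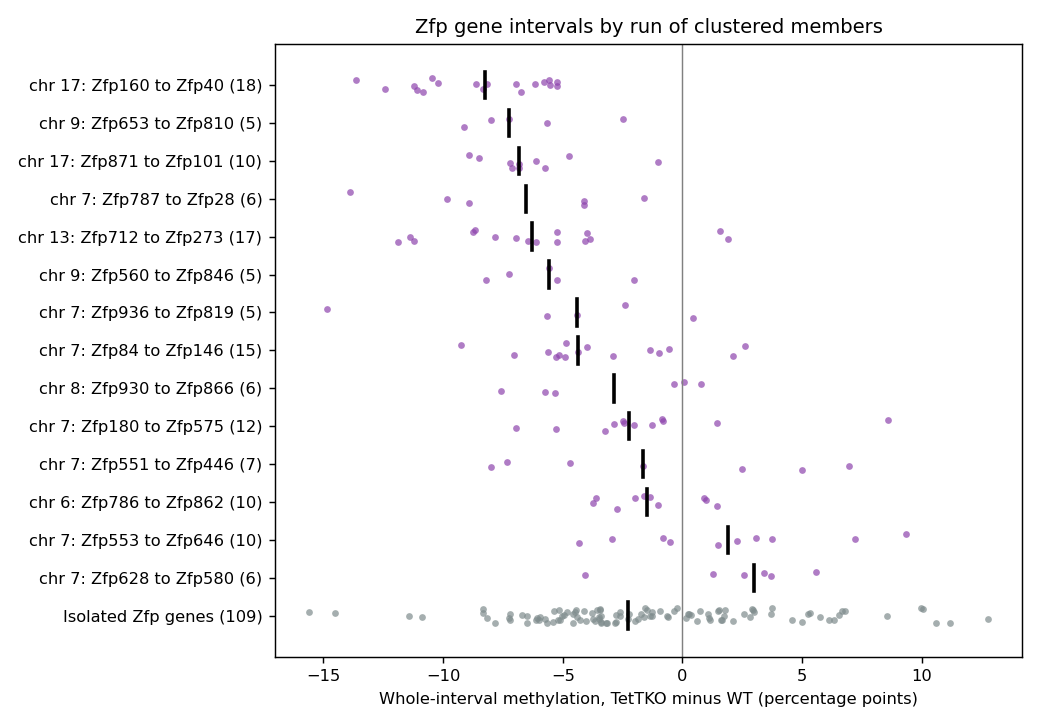
Whole-interval methylation difference, TetTKO minus WT in percentage points, of each clustered Zfp gene (purple points) in the 14 runs of at least 5 members, and of each isolated gene (grey), with the median of each row as a black bar; numbers in brackets are members. All 18 points of the run from Zfp160 to Zfp40 lie below 0, and the medians of the bottom 2 runs lie at 1.90 and 3.01 points.

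Single intervals with the largest losses were spread over the classes. Zfp97 on chromosome 17 (17258347 to 17283842) had 54.2% in TetTKO and 74.5% in WT over 27 CpGs. Pooled over reads, its shares were 58.2% in TetTKO (95% exact binomial interval 52.8 to 63.5) and 76.8% in WT (71.2 to 81.8). Such intervals cover counting error only and are too narrow, because 1 read can cover several CpGs. The isolated Zfp931 on chromosome 2 had 54.5% in TetTKO and 70.1% in WT over 36 CpGs, and the isolated Zfp654 on chromosome 16 had 69.0% and 83.5% over 27. Of clustered genes, Zfp936 had 56.9% in TetTKO and 71.7% in WT over 91 CpGs, Zfp583 had 68.3% and 82.2% over 115, and Zfp345 had 61.2% and 74.2% over 80. Apart from Zfp583, these genes had more FPKM in TetTKO, but none of them by 2-fold. Of all genes of at least 1 FPKM, 48.7% were higher in TetTKO. Zfp931 had 10.3 FPKM in TetTKO and 8.53 in WT, and Zfp583 had 1.83 and 1.96.

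Of the 8 largest gains, 5 were isolated genes. Zfp740 on chromosome 15 (102038698 to 102046032) had 28.7% in TetTKO and 15.9% in WT over 90 CpGs. Zfp296 on chromosome 7 (20162636 to 20166005), which binds heterochromatin and works with pluripotency factors in mouse stem cells, had 17.4% in TetTKO and 6.21% in WT over 92 CpGs. Over CpGs with at least 10 reads in both libraries the difference of Zfp296 was 18.1 points, against 11.2 over all. Zfp358 had 27.3% in TetTKO and 16.7% in WT, Zfp710 had 54.1% and 44.1%, and Zfp532 had 56.9% and 47.0%. Zfp526 had 46.6% and 36.7% and the clustered Zfp553 had 37.9% and 28.6%, although Zfp553 differed by 5.22 points when reads were pooled. Zfp775, on chromosome 6, had 48.0% and 38.7%, and differed by 5.71 points at a coverage of at least 10. All 8 had less FPKM in TetTKO, from 0.65 against 0.79 for Zfp358 to 59.3 against 73.0 for Zfp740. Of all genes of at least 1 FPKM, 5415 of 10588 were lower. Zfp358 was under 1 FPKM in both libraries. All 13 chromosome 6 members of at least 1 FPKM in either library, Zfp775 among them, were lower. A link between methylation and RNA in these genes was not tested.

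At the CpG-richer end, which is mostly the promoter, members were little methylated in either genotype, and TetTKO was slightly higher. The median was 5.90% in TetTKO and 3.97% in WT, with a median difference of 0.84 points, against 0.71 points over all genes. For ends of 500 bp on each side it was 0.46 points, and centred on all genes 0.13 points. TetTKO was higher in 230 of 321 ends, 71.7%, against 65.1% of all gene ends of this kind. Clustered members had medians of 6.48% in TetTKO and 5.07% in WT, members between 6.98% and 5.87%, isolated members 3.61% and 2.29%, and non-members 11.3% and 8.03%. Members with fewer promoter CpGs had higher levels at this end. With under 10 CpGs in the RefSeq window the medians were 9.60% in TetTKO and 7.58% in WT, with 10 to 19 they were 6.50% and 5.50%, and with 20 or more 3.45% and 2.16%.

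Most members kept a CpG-richer end under 10% methylated. This held for 217 ends in TetTKO and 234 in WT, of which 210 were the same genes. In 24 members the end was at 10 to 50% in TetTKO and under 10% in WT, and in 7 members it was the reverse. Of all gene ends of this kind, 65.1% were higher in TetTKO, so this lean cannot be called particular to members. Over 50% were 25 ends in TetTKO and 27 in WT, of which 24 were shared. The share of genes with RNA ran in the order of these classes. In TetTKO, 194 of 217 members with under 10%, 51 of 79 with 10 to 50% and 12 of 25 with over 50% had at least 1 FPKM. In WT these were 195 of 234, 41 of 60 and 12 of 27. Neither the class changes nor these shares were counted over all genes. The genes are not independent replicates, and the ends were measured in other libraries than the RNA.

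**Figure D4:**
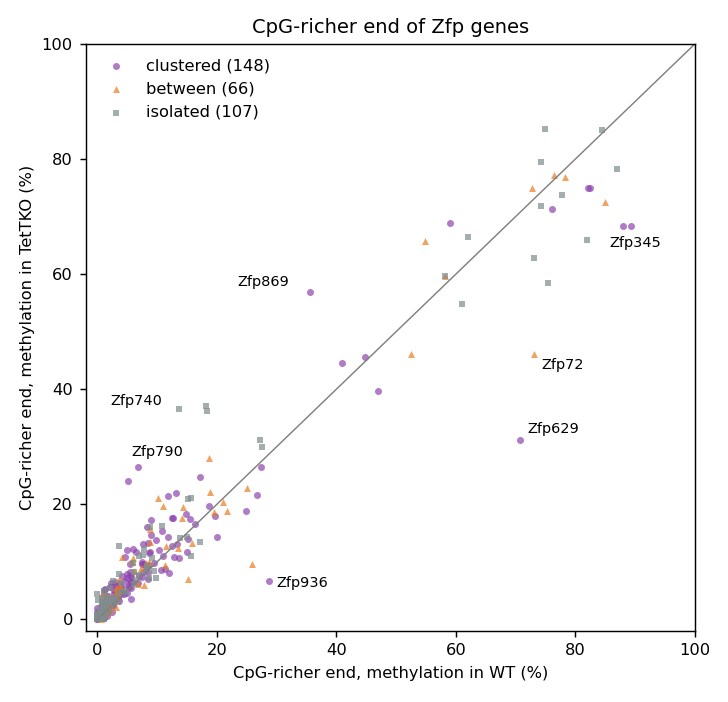
Methylation of the CpG-richer end of each of 321 Zfp genes in percent, TetTKO against WT, with the line of equal values. Most points lie near the origin, and the named genes are those at least 20 points from the line plus Zfp790 at 26.5% in TetTKO and 6.86% in WT.

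At least 20 points higher at the CpG-richer end were 2 members, 0.62%, against 1.84% of all gene ends, and at least 20 points lower were 4 members, 1.25%, against 1.45%. Zfp740 was higher at either end, with 36.6% in TetTKO and 13.6% in WT over 29 CpGs at the CpG-richer end and 38.6% and 18.0% over 27 CpGs at the other. By RefSeq strand that other end is the gene start. The RefSeq window printed above has 54 CpGs, more than the 27 listed in that end. Whether the window lies inside the measured end was not checked. Zfp740 had 59.3 FPKM in TetTKO and 73.0 in WT, where it was among the 5 members with most RNA. Zfp869 had 56.9% in TetTKO and 35.5% in WT over 41 CpGs. Over its 11 CpGs with at least 10 reads it had 72.0% and 74.6%, so its gain rests on thinly covered CpGs.

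Zfp790, in the large run on chromosome 7 from Zfp84 to Zfp146, had a CpG-richer end at 26.5% in TetTKO and 6.86% in WT over 38 CpGs. At a coverage of at least 10 it had 28.8% and 2.83% over 17 CpGs. Its RNA was at 2.40 FPKM in TetTKO and 2.50 in WT. Zfp423, a regulator of adipocyte and neural development, had 37.1% in TetTKO and 18.1% in WT, but the difference was 0.15 points when the end was widened to 2000 bp of flank and 1000 bp of gene. Zfp750, known for epidermal differentiation, had 36.1% in TetTKO and 18.3% in WT, with a difference of 1.39 points at a coverage of at least 10. Zfp821 had 21.1% and 10.1%, with a difference of 1.41 points for an end of 500 bp on each side. Zfp579 had 68.8% in TetTKO and 59.1% in WT, and Zfp595 had 21.3% and 11.8%.

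Of the 4 losses of at least 20 points, those of Zfp936, Zfp629 and Zfp72 were at the gene start by RefSeq strand, and that of Zfp345 was at the other end. Zfp936 on chromosome 7 (50432958 to 50447479) had 6.62% in TetTKO and 28.8% in WT over 22 CpGs, and 6.09% and 25.6% over 20 CpGs with at least 10 reads. Pooled over reads, its shares had 95% exact binomial intervals of 4.59 to 9.86% in TetTKO and 21.8 to 31.6% in WT. These cover counting error only and are too narrow, and Zfp936 was named for the size of its loss. It had 57.9 FPKM in TetTKO and 44.7 in WT. Coverage over its interval was 20.3 reads per CpG in TetTKO and 16.0 in WT, against member medians of 10.9 and 9.49, and whether reads of near copies are included was not tested. Zfp629 on chromosome 7 (134750549 to 134757947) had 31.1% in TetTKO and 70.8% in WT over 17 CpGs. At a coverage of at least 10 its other end held more CpGs, so the value could not be compared there. Its RNA was at 1.11 FPKM in TetTKO and 0.15 in WT. Zfp345 had 68.4% in TetTKO and 89.2% in WT over 16 CpGs, with the same limit at that coverage, and Zfp72 had 46.1% and 73.1% over 7 CpGs. Other losses of at least 20 CpGs were smaller, from Zfp663 at 72.4% in TetTKO and 85.0% in WT to Zfp708 at 71.3% and 76.1%. Between them lay Zfp934, Zfp13, Zfp560, Zfp719 and Zfp953, and Zfp13 was 2.36 points higher with the wider end.

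The CpG-poorer ends, mostly the gene finish, resembled the interiors. Their median was 70.1% in TetTKO and 77.0% in WT, with a median difference of -5.01 points, and TetTKO was lower in 193 of 268, 72.0%, against 64.6% of all genes. At least 20 points lower were 10 members, 3.73%, against 3.39% of all, and at least 20 points higher were 3 members, 1.12%, against 3.06%. Zfp296 had 58.2% in TetTKO and 25.8% in WT over 19 CpGs at this end, and Zfp87 had 58.8% and 29.8% over 11. Zfp740 was the third. Among the losses, Zfp619 had 59.6% in TetTKO and 89.6% in WT over 11 CpGs and Zfp229 had 57.9% and 86.6% over 7.

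RNA of most members was similar in both genotypes, with more members higher than lower in TetTKO. The median over members was 3.88 FPKM in TetTKO and 3.48 in WT, and 260 of 326 had at least 1 FPKM in either library. Of those, 9 reached 1 FPKM in TetTKO alone and none in WT alone. Over all genes, 10352 of 10588 reached it in TetTKO and 10092 in WT, so TetTKO alone was also the commoner case there. The log2 ratio, with 1 FPKM added to each value, had a median of 0.05 and a range of -0.98 to 1.46. TetTKO was higher in 149 of 260, 57.3%, against 48.7% of all 10588 genes of at least 1 FPKM. At least 2-fold higher was 1 member, Zfp600, against 1.68% of all genes, and at least 2-fold lower was none, against 0.831%. With 0.1 FPKM added, 4 members were 2-fold higher (Zfp600, Zfp629, Zfp964 and Zfp560), against 4.22% of all genes, and 1 was 2-fold lower, Zfp775 on chromosome 6, against 1.97%. Zfp629, Zfp964 and Zfp560 reached 1 FPKM in TetTKO alone, so they could be counted only as higher.

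All 13 members of chromosome 6 with at least 1 FPKM were lower in TetTKO, with a median log2 ratio of -0.42, close to the -0.43 of their chromosome. On the other chromosomes 149 of 247 members were higher, with a median of 0.06. Without chromosome 6, the count was 66 of 119 clustered members, 35 of 52 between and 48 of 76 isolated, with median log2 ratios of 0.05, 0.13 and 0.06. With chromosome 6 included, the medians were 0.04, 0.11 and 0.06, with 66 of 125, 35 of 56 and 48 of 79 higher. Non-member genes near the clusters, also with chromosome 6 included, had a median of -0.11, with 103 of 310 higher. The classes of zinc finger genes thus differed by under 0.1 on the log2 scale, while the genes around them leaned the other way. Single reads of 50 bases cannot always be placed among near-identical zinc finger genes, so values of close relatives are uncertain.

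**Figure D5:**
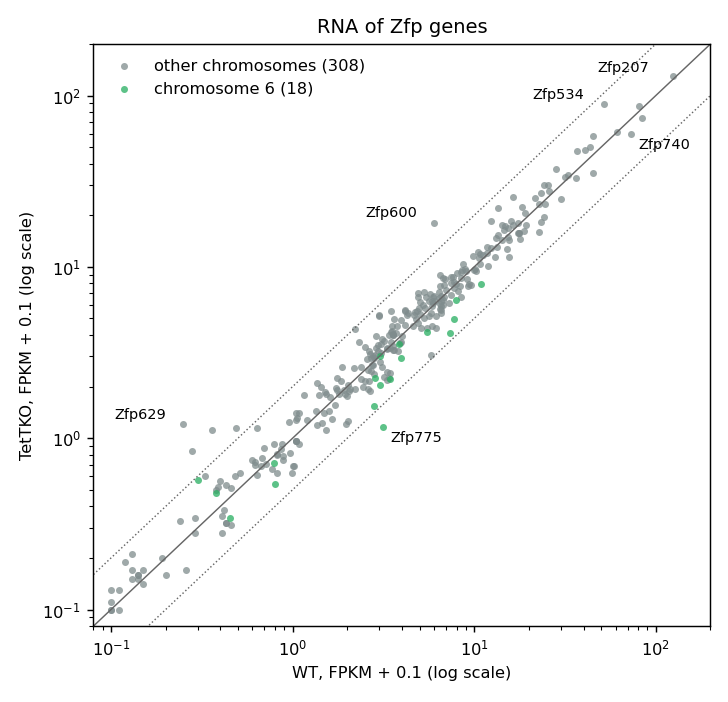
FPKM + 0.1 of each of the 326 Zfp genes on log axes, TetTKO against WT, with the line of equal values and dotted lines at 2-fold, and chromosome 6 members in green. Zfp600 lies above the upper dotted line at 17.98 FPKM in TetTKO and 5.91 in WT, and the 13 chromosome 6 members of at least 1 FPKM lie below the line of equal values.

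Zfp600 on chromosome 4 (146124225 to 146166150) had 17.98 FPKM in TetTKO and 5.91 in WT, 3.04-fold higher. Its interval was at 64.9% in TetTKO and 70.2% in WT over 110 CpGs, and its ends held fewer than 5 listed CpGs each. Coverage there was 40.9 reads per CpG in TetTKO and 30.8 in WT, the highest of all members, and whether reads of copies elsewhere are included was not tested. Zfp534, also on chromosome 4, had 88.7 FPKM in TetTKO and 51.9 in WT, with its interval at 39.0% and 50.9%. Zfp534 falls outside the naming rule and was picked for its values.

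Of the 5 members with most RNA in WT, Zfp740 is described above and the other 4 differed by little. Zfp207, a spindle assembly protein also known to act in splicing, had 130.6 FPKM in TetTKO and 125.1 in WT. Zfp330 had 73.7 and 83.4, Zfp428 had 87.2 and 80.3 and Zfp622 had 61.5 and 60.7. Their CpG-richer ends were all under 5% in both genotypes, unlike that of Zfp740.

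Of silencers of retroelements, Zfp809, which recruits Trim28 to retroviruses through their primer binding site, had 22.1 FPKM in TetTKO and 13.4 in WT, with a log2 ratio of 0.69. Its CpG-richer end was at 0.27% in TetTKO and 1.09% in WT, and its interval at 46.5% and 55.6%. Zfp819, another repressor of retroelements, had 11.3 FPKM in TetTKO and 15.5 in WT, and its CpG-richer end was at 16.0% and 8.37%. Zfp568, which represses the placental transcript of Igf2, had 47.8 FPKM in TetTKO and 40.5 in WT, and its end stayed under 1% in both. Zfp445, a guardian of imprinting, had 17.2 FPKM in TetTKO and 14.7 in WT, with an end at 22.8% and 25.0%. Zfp708 had 1.46 FPKM in TetTKO and 1.61 in WT. Zfp459, named only for its number of neighbours, had 15.8 FPKM in TetTKO and 22.8 in WT.

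Other members with known roles were mostly outside clusters. Zfp281, a pluripotency regulator, had 37.2 FPKM in TetTKO and 28.0 in WT. Zfp143, an activator at many promoters, had 14.9 and 15.3, Zfp706, which restrains self-renewal in mouse stem cells, 15.6 and 17.6, and Zfp217 10.3 and 10.6. Zfp296 had 7.66 FPKM in TetTKO and 9.19 in WT. Zfp462 had 5.10 FPKM in TetTKO and 2.90 in WT, with a log2 ratio of 0.65. Zfp148 had 3.88 and 3.29, Zfp292 had 12.9 and 11.7 and Zfp335 had 2.85 and 2.72. Zfp260, in a cluster on chromosome 7, had 17.9 and 17.4, and Zfp36 had 1.77 and 1.41. Zfp423 had 3.54 FPKM in TetTKO and 2.23 in WT, with a log2 ratio of 0.49. The developmental genes Zfp521 and Zfp703 were under 0.1 FPKM in both libraries.

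The partners of KRAB proteins were expressed in both genotypes. All 22 genes of the list had at least 1 FPKM, 15 were higher and 7 lower in TetTKO, and the median log2 ratio was 0.09. Of all genes of at least 1 FPKM, 48.7% were higher and 1.68% at least 2-fold higher. Trim28 had 990 FPKM in TetTKO and 1013 in WT, and Setdb1 had 27.1 and 22.7. With 1 FPKM added, the de novo methyltransferase gene Dnmt3b, at 149 FPKM in TetTKO and 66.9 in WT, was the only one at least 2-fold higher. Dnmt3a had 30.3 and 14.7, just short of 2-fold on that scale, with a log2 ratio of 0.993. Among the 7 lower, Uhrf1 had 71.8 FPKM in TetTKO and 109.2 in WT. Cbx3, a heterochromatin protein gene on chromosome 6, had 228 FPKM in TetTKO and 380.0 in WT.

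Methylation and RNA differences were weakly related across members. The difference at the CpG-richer end and the log2 ratio had a Spearman correlation of -0.144 and a Pearson correlation of -0.269 over 257 members. The whole-interval difference and the log2 ratio had -0.267 and -0.294 over 260. The points share the same libraries and neighbouring genes share a region, so these are descriptions and not tests.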

How the data were processed

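WGBS and RNA-seq libraries of TetTKO and WT E14Tg2a cells were analysed, 1 of each per genotype. The submitters' processing notes name Trim Galore, Bismark 0.7.9, Bowtie and SAMtools, TopHat2 2.0.2, Cufflinks 2.0.2 and build mm9, without further settings. Per the labels' protocols, DNA was read as pairs of 110 bases, and ribosome-depleted directional RNA libraries as single reads of 50 bases. The deposited methylation files give, for each CpG, the fraction of methylated reads as the authors computed it with its methylated and total read counts, and every listed CpG was covered by 5 or more reads in both genotypes. The deposited expression files hold FPKM per gene, each with its symbol and interval, and carry no strand. How deeply the RNA was read is unknown.

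Levels were unweighted means over listed CpGs of methylated over all reads, recomputed from the deposited counts. Differences are TetTKO minus WT in percentage points, and called means at least 10 points for an interval and 20 for an end. FPKM ratios were log2((TetTKO + 1)/(WT + 1)) among genes of at least 1 FPKM in either library, so low genes are understated and a gene reaching 1 FPKM in 1 library can differ only that way. A fold change quoted for Zfp600 is the plain ratio. Intervals of read shares are exact 95% binomial ones. No p-value was computed, because each group has 1 library. The end rule was tested on simulated data. Members, classes and gene lists were chosen with earlier results of these data known. Named were the 8 largest gains and losses of the interval and of the CpG-richer end (at least 20 CpGs), members 2-fold different in FPKM, the 5 highest in WT, the 3 with most neighbours, a list of members with known roles and every run of at least 5. Members at least 20 points different at an end, and those 2-fold different with 0.1 FPKM added, were named after their values were seen. Alternatives covered CpG number, coverage, pooling, end size, neighbour distance, pseudocount, filters, chromosomes 6 and 7 and CpG density. Symbols with several rows (3) and single-row symbols off chromosomes 1 to 19 (7) were left out. Python 3.11.15, numpy 2.4.6, pandas 2.3.3, scipy 1.17.1 and matplotlib 3.10.9 were used.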

Additional observations from a re-analysis of the deposited data

How the results depend on the processing

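With 1 library per group no replicate could be left out. No paired analysis was possible because each genotype had 1 library of each kind. Of the alternatives to group results, 61 moved little and 23 moved. None of those in percentage points changed direction. The FPKM results were counts compared by size only, so a change of direction could not show in them. The median whole-interval difference of -3.75 points was -3.92 with reads pooled, -4.90 at a coverage of at least 10, -3.98 without chromosome 6, -6.55 without 2000 bp at each end, and -0.82 when centred on all genes. The CpG-richer end, at 0.84, was 0.13 when centred and 0.46 for ends of 500 bp on each side. The CpG-poorer end, at -5.01, was -4.14 with at least 10 CpGs, -3.27 at a coverage of at least 10, -1.33 when centred and -4.29 for ends of 500 bp. The clustered minus isolated gap of -2.62 was -3.38 with reads pooled, -2.02 at a coverage of at least 10, -3.13 without chromosome 6, -3.95 without 2000 bp at each end, -1.58 with neighbours within 250 kb and -3.53 without chromosome 7. It was -2.02 among members with under 10 CpGs per kb and -1.71 among the others. These density bands, the gap without 2000 bp at each end and the ends by RefSeq strand were chosen after seeing the data. With 0.1 FPKM added, 4 members were 2-fold higher and 1 lower, against 1 and 0. Higher clustered members numbered 39 when clustered meant 6 or more others and 41 without chromosome 7, against 66, since fewer genes were counted. Of the alternatives to single genes, 490 moved little, 48 moved, and the CpG-richer end of Zfp869 reversed to -2.62 points at a coverage of at least 10. CpG-poorer ends rest on a median of 11 CpGs and CpG-richer ends on 42, at a median coverage of 10 reads in TetTKO and 9 in WT, which limits single ends. The causes were not tested.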
